A study of Mus musculus with 12 samples.

Results

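Immediate-early genes were represented by 10 members (*Fos*, *Fosb*, *Jun*, *Junb*, *Egr1*, *Egr2*, *Egr3*, *Ier2*, *Atf3* and *Dusp1*) among the 19938 genes that could be read from the arrays. A member is the brightest probe set whose only gene symbol is one of these names, and each of the 10 had exactly 1 such probe set. The list was chosen by name, but with the higher *Fos* signal of KO gastrocnemius already known, so that the values of KO against WT gastrocnemius are given as a description: the threshold is applied there as elsewhere, but its calls are no evidence for these genes. The results of KO against WT diaphragm were known as well, so that the calls there are no independent evidence either. mRNA was measured in muscles of male mice of the C57Bl6 strain, 10 to 12 weeks old, that lacked *Cox6a2* (KO) or were wild type (WT). The 4 groups were KO gastrocnemius, WT gastrocnemius, KO diaphragm and WT diaphragm, with 3 arrays each, labelled as biological replicates. *Cox6a2* encodes the subunit of cytochrome *c* oxidase that striated muscle uses, and its deletion was present throughout the animal. According to the methods the controls were purchased C57BL/6J mice matched for age and sex, and they are not described as littermates, so that the knockout and any other difference between the lines cannot be told apart. Values are log2 signals, on which a difference of 1 is a doubling. Differences are given with the standard error (SE) of a limma model over all 12 arrays, and a gene was called changed at a Benjamini-Hochberg adjusted p under 0.05 over all genes.

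Immediate-early genes are transcribed within minutes of a stimulus, without prior protein synthesis, because the factors that switch them on (SRF with its ternary complex partners, and CREB) are already bound or waiting in the cell. FOS and JUN family proteins pair to form the AP-1 transcription factor, EGR proteins are zinc finger factors that bind GC-rich sites, and DUSP1 is a phosphatase that switches off the MAP kinases. In skeletal muscle the class is known for its response to contraction, stretch, injury and hormones.

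The promoters show which DNA letters lie next to the start sites of these genes. Promoter sequences from RefSeq (build GRCm38.p6) matched 7 of the 10 members, in 11 windows, and the 250 bases before the start were searched on both strands. *Egr1*, *Egr3* and *Ier2* had no entry. The first motifs searched were the CRE (TGACGTCA), the AP-1 site (TGANTCA), the EGR site (GCGNGGGCG), the CArG box that SRF binds, and the TATA box (TATAAA). A CRE was found only in *Dusp1* and is in 1.55% of all 32851 windows. An EGR site was found only in *Fosb* (4.7% of windows), a CArG box only in *Egr2* (1.47%) and a TATA box only in *Fos* (12.4%). None of the 7 had TGANTCA (6.75%), and other spellings of the AP-1 site were not searched. Sequence beyond these 250 bases was not searched, so that a motif missing here may still lie farther from the start. The shorter TGACG, which every CRE contains, was added as a motif after these windows had been read and its recurrence had been seen. It occurs in *Fos*, *Fosb*, *Junb*, *Egr2*, *Atf3* and *Dusp1*, 6 of the 7, and in 17.8% of all windows or 19.8% of genes, but as a motif picked from these same sequences its count supports nothing. The windows of *Fos*, *Fosb* and *Dusp1*, which were called higher in both muscles of KO mice, are shown with those of *Junb* and *Jun*, which were not, and capitals mark TGACG on either strand. *Junb*, *Egr2* and *Atf3* hold TGACG as well and were not called, and *Jun* is the only one of the 7 without it. They lie at chr12:85473640-85473889 (plus strand) for *Fos*, chr7:19310046-19310295 (minus strand) for *Fosb*, chr17:26508473-26508722 (minus strand) for *Dusp1*, chr8:84978749-84978998 (minus strand) for *Junb* and chr4:95052223-95052472 (minus strand) for *Jun*.
Fos: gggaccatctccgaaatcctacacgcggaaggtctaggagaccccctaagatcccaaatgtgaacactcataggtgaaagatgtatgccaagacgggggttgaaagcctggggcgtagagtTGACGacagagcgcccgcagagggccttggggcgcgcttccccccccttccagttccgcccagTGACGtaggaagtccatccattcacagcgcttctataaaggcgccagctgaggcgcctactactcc
Fosb: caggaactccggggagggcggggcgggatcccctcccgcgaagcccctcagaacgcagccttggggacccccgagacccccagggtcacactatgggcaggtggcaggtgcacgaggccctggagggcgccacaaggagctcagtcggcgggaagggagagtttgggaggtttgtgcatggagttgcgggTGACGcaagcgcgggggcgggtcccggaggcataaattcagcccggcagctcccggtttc
Dusp1: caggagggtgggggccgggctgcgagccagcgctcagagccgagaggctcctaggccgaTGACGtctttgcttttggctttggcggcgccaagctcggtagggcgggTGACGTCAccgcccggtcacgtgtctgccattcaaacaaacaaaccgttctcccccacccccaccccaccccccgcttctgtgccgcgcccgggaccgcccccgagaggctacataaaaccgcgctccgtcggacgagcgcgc
Junb: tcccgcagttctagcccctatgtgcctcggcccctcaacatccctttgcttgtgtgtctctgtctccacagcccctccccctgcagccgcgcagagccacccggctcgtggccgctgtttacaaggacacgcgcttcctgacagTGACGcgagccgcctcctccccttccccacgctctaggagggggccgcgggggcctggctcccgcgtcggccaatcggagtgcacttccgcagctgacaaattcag
Jun: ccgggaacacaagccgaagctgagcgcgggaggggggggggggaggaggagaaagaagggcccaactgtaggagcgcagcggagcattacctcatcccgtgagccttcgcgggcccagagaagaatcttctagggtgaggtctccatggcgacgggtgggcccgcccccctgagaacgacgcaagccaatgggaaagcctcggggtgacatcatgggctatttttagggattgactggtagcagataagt
In *Fos* TGACG starts 129 and 66 bases before the start site, and in *Fosb* 60 bases before it. The *Dusp1* window holds the full CRE, 143 bases before the start. A match is a description of the letters, and binding was not measured.

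The deleted gene and the muscle labels were checked first. The KO minus WT difference of *Cox6a2* was -4.81 (SE 0.13) in gastrocnemius and -4.996 (SE 0.13) in diaphragm on the log2 scale. The mean log2 signal of 11 hindlimb position genes (such as *Hoxc10*) was 5.41 to 5.58 on the KO diaphragm arrays and 6.60 to 6.79 on the arrays labelled WT diaphragm, against 6.61 to 6.70 over the 6 gastrocnemius arrays. The mean of 8 markers of the mesothelium, the sheet of cells that covers the diaphragm, was 7.74 to 8.56 on KO diaphragm arrays and 5.28 to 5.35 on those labelled WT diaphragm, against 5.18 to 5.51 in gastrocnemius. The correlation across all 19938 genes between an array labelled WT diaphragm and a WT gastrocnemius array was 0.989 to 0.992, and between such an array and a KO diaphragm array it was 0.963 to 0.975. The arrays labelled WT diaphragm therefore carry the position genes of hindlimb and lack the mesothelial signal, and genotype and muscle cannot be told apart in any comparison between KO diaphragm and these arrays.

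In gastrocnemius, *Fos*, *Egr1*, *Dusp1* and *Fosb* stood higher in KO than in WT mice, by 4.64-fold, 2.80-fold, 2.24-fold and 1.95-fold. *Fos*, the founding AP-1 subunit, had log2 signals of 8.89, 8.77 and 8.18 on the KO gastrocnemius arrays, against 6.62, 6.28 and 6.29 on the WT gastrocnemius arrays. Its difference of 2.21 (SE 0.24, n = 3 each) ranked 1 of 19938 genes. *Egr1*, the most widely studied EGR factor, had 8.04, 7.90 and 7.44 in KO gastrocnemius, against 6.51, 6.21 and 6.21 in WT gastrocnemius. Every KO array lay above every WT array for both genes, and the difference of *Egr1* was 1.49 (SE 0.25, n = 3 each, rank 10). *Dusp1* was the brightest member, with log2 signals of 10.97, 11.28 and 10.9955 in KO gastrocnemius, against 9.89, 9.93 and 9.92 in WT gastrocnemius. The 3 WT arrays of *Dusp1* were almost equal, and the difference was 1.17 (SE 0.20, n = 3 each, rank 19). *Fosb*, a FOS paralogue, had 7.05, 7.13 and 6.66 in KO gastrocnemius, against 6.15, 5.82 and 5.99 in WT gastrocnemius. Again no arrays overlapped, with a difference of 0.96 (SE 0.16, n = 3 each, rank 27).

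The other 6 members did not pass the threshold in gastrocnemius. *Ier2*, a short nuclear protein gene, had log2 signals of 6.69, 6.49 and 6.13 in KO gastrocnemius, against 6.04, 5.69 and 5.96 in WT gastrocnemius, so that the arrays did not overlap although the gene was not called (difference 0.54, SE 0.16). *Atf3*, a stress-induced ATF/CREB family factor, had 7.89, 7.62 and 8.05 in KO gastrocnemius, against 8.002, 6.85 and 6.64 in WT gastrocnemius. A single WT array at the level of the KO arrays made the groups of *Atf3* overlap (difference 0.69, SE 0.30). The AP-1 subunit genes *Junb* and *Jun* differed by 0.33 (SE 0.14) and 0.04 (SE 0.18), with overlapping arrays. *Egr2* and *Egr3*, the paralogues of *Egr1*, differed by -0.11 (SE 0.17) and -0.23 (SE 0.11), also with overlapping arrays. *Fos* and *Fosb* were thus higher, while *Fosl2* (0.63) and *Fosl1* (-0.20), the other FOS family genes, were not called. The KO gastrocnemius arrays of *Fosl2* (7.59 to 8.15) nevertheless lay above its WT gastrocnemius arrays (7.08 to 7.37). *Jun*, which encodes a partner of the FOS proteins, was at 9.33, 9.62 and 9.09 in KO against 9.12, 9.70 and 9.09 in WT gastrocnemius. By count, 4 of 10 members were called higher, where 0.406% of all genes were, and for 5 of 10 no KO array overlapped with the WT arrays below it, as was so for 12.3% of all genes. The median difference was 0.61 over the members and -0.01 over all genes. As *Fos* was known from this comparison, nothing is read from these counts. Leaving out WT gastrocnemius replicate 2 or 3, or KO gastrocnemius replicate 1 or 2, left only *Fos* called (1 member), and without WT gastrocnemius replicate 1 or KO gastrocnemius replicate 3 *Dusp1* was lost.

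**Figure D1:**
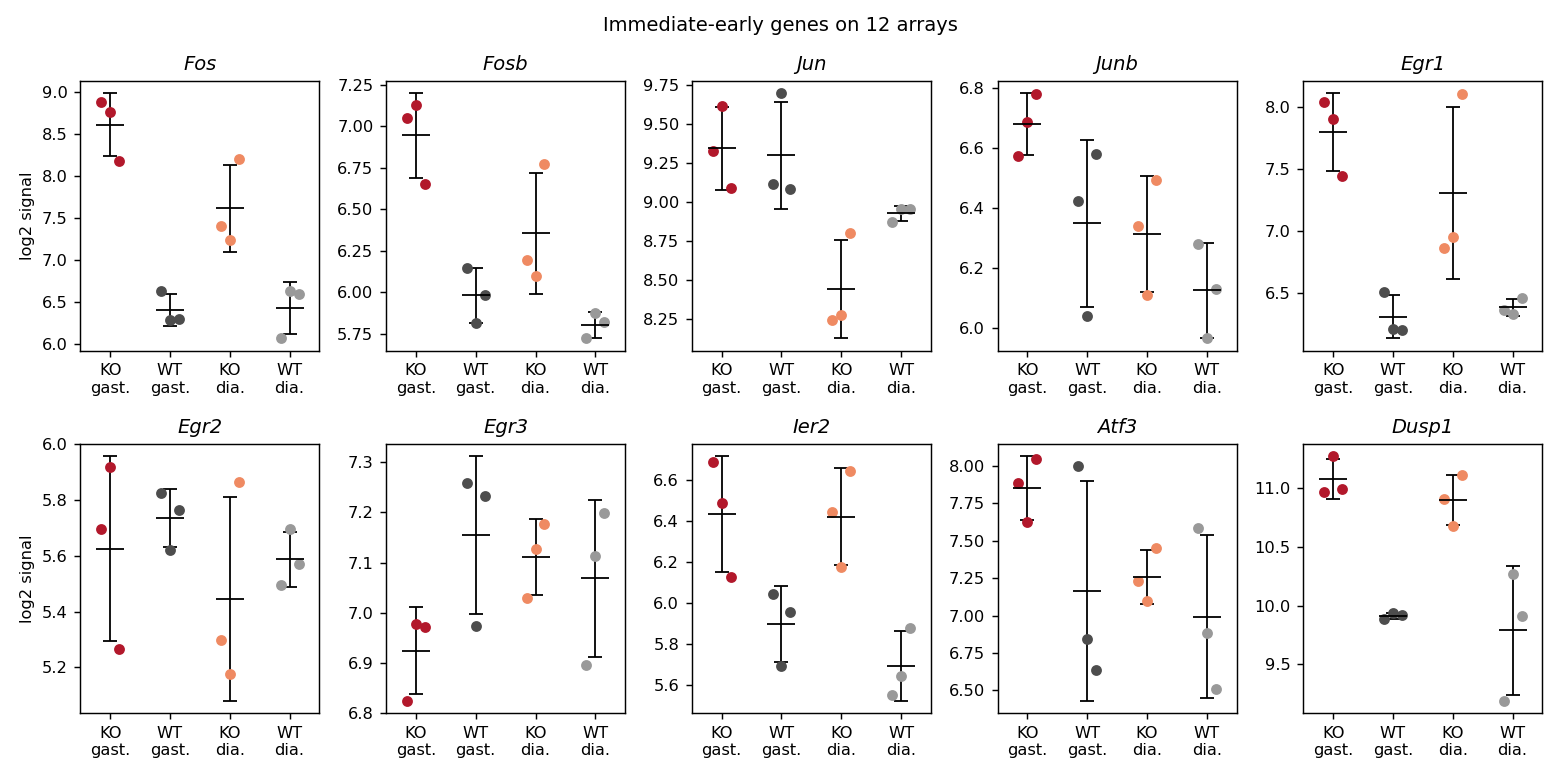
Log2 signal (vertical axes, a separate scale for each gene) of the 10 immediate-early genes on the 3 arrays of each group (horizontal axes, by label: KO and WT gastrocnemius, KO and WT diaphragm), with points for arrays and bars for the mean ± SD. The 3 KO gastrocnemius points of *Fos* lie between 8.18 and 8.89, above all points of WT arrays, which lie between 6.06 and 6.63.

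KO diaphragm was then compared with the arrays labelled WT diaphragm, whose results were also known when the members were listed. *Fos*, *Dusp1*, *Egr1*, *Ier2* and *Fosb* were higher in KO diaphragm, and no member was called lower. *Fos* had log2 signals of 7.40, 7.24 and 8.21 in KO diaphragm, against 6.06, 6.63 and 6.59 on the arrays labelled WT diaphragm. The groups did not overlap, and the difference was 1.19 (SE 0.24, n = 3 each, adjusted p = 0.0018). *Dusp1* had 10.91, 10.68 and 11.11 in KO diaphragm, against 9.18, 10.27 and 9.92 on the arrays labelled WT diaphragm. Its WT arrays were spread more widely than its KO arrays, without overlap (difference 1.11, SE 0.20, n = 3 each, adjusted p = 9.0e-04). *Egr1* had 6.87, 6.95 and 8.10 in KO diaphragm, against 6.36, 6.33 and 6.46 on the arrays labelled WT diaphragm. KO replicate 3 stood far above the other KO arrays, and the difference was 0.92 (SE 0.25, n = 3 each, adjusted p = 0.013), against 0.52 without that array (adjusted p = 0.026). *Ier2* had 6.44, 6.17 and 6.65 in KO diaphragm, against 5.55, 5.64 and 5.88 on the arrays labelled WT diaphragm. *Ier2* differed by 0.73 (SE 0.16, n = 3 each, adjusted p = 0.0027), with no overlap. *Fosb* had 6.20, 6.10 and 6.77 in KO diaphragm, against 5.72, 5.88 and 5.82 on the arrays labelled WT diaphragm. The difference of *Fosb* was the smallest of those called (0.55, SE 0.16, n = 3 each, adjusted p = 0.022) and was lost without KO diaphragm replicate 3 (0.34, adjusted p = 0.10), WT diaphragm replicate 1 (0.51, adjusted p = 0.069) or WT diaphragm replicate 3 (0.56, adjusted p = 0.054). The methods' t-test called neither *Fosb* nor *Egr1* at its own threshold.

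*Jun* had log2 signals of 8.24, 8.28 and 8.80 in KO diaphragm, against 8.87, 8.96 and 8.96 on the arrays labelled WT diaphragm. All its KO arrays lay below the WT arrays, but the difference of -0.49 (SE 0.18, n = 3 each) was not called (adjusted p = 0.059). *Jun* was called lower without KO diaphragm replicate 3 (-0.67, adjusted p = 0.014) or WT gastrocnemius replicate 2 (adjusted p = 0.029), and with own groups only, median centring, quantile normalization or only the brighter genes (adjusted p = 0.028 to 0.044). *Junb*, *Egr2*, *Egr3* and *Atf3* differed by 0.19, -0.14, 0.04 and 0.27, with overlapping arrays and adjusted p-values of 0.34 to 0.80. A p that misses the threshold does not show that these genes were equal. Of the 10 members 5 were called higher, where 16.3% of all genes were, and for 5 the KO arrays were all above the WT arrays, as was so for 20.9% of all genes. The median difference of the members was 0.41, and that of all genes -0.04. As the results of this comparison were known when the members were listed, nothing is read from these counts.

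Markers of other cell types moved in the same comparison. All 8 mesothelial markers, 9 of 10 macrophage, 9 of 10 endothelial, 6 of 9 fibroblast, 5 of 6 adipocyte and 4 of 4 B cell markers were called higher in KO diaphragm, and 8 of 11 hindlimb position genes were called lower. Of the contractile lists, 5 of 7 smooth muscle markers were lower, and of 12 skeletal muscle markers 6 were lower and 3 higher. Over all genes 16.3% were called higher and 11.2% lower. The mean log2 signal of the smooth muscle markers was 7.60 to 7.82 on KO diaphragm arrays and 8.07 to 8.26 on the arrays labelled WT diaphragm, against 7.61 to 7.73 in KO gastrocnemius. The mean log2 signal of the macrophage markers was 7.87 to 8.39 on KO diaphragm arrays and 6.62 to 7.15 on the arrays labelled WT diaphragm, and that of the endothelial markers was 8.77 to 9.01 on KO diaphragm arrays and 8.04 to 8.30 on the arrays labelled WT diaphragm. The part of these cells in the signals of *Fos*, *Egr1*, *Dusp1*, *Ier2* and *Fosb* was not tested, and in whole muscle more cells of a type cannot be told apart from more RNA per cell. In gastrocnemius none of the marker lists had a called gene, where 0.592% of all genes were called. The macrophage markers were at 6.67 to 6.89 in KO and 6.96 to 7.30 in WT gastrocnemius, and their part in the members' values was not tested.

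**Figure D2:**
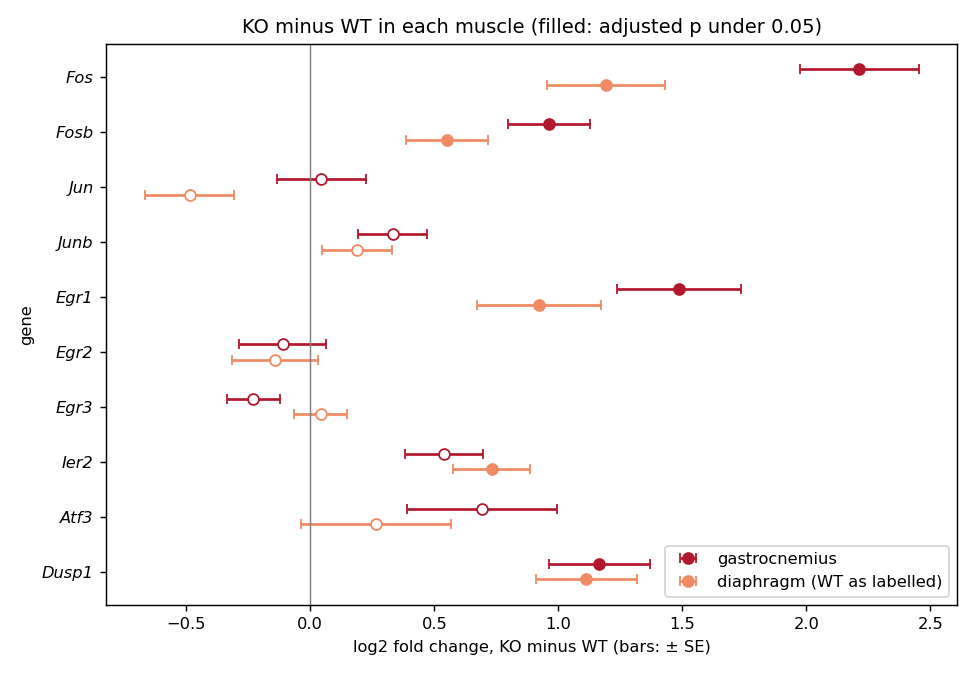
Log2 fold change of KO minus WT (horizontal axis, bars ± SE, n = 3 arrays per group) for the 10 genes (vertical axis) in gastrocnemius (red) and diaphragm (orange, WT as labelled), with filled points at an adjusted p under 0.05. *Fos* is at 2.21 in gastrocnemius and 1.19 in diaphragm, *Dusp1* at 1.17 and 1.11, and *Jun* at 0.04 and -0.49.

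Since the muscle of the arrays labelled WT diaphragm is in doubt, KO diaphragm was also set against WT gastrocnemius, a comparison added after the position genes had been seen and one that still mixes genotype with muscle. There *Fos* (1.22, adjusted p = 0.0014), *Egr1* (1.00, adjusted p = 0.0074), *Dusp1* (0.99, adjusted p = 0.0019) and *Ier2* (0.53, adjusted p = 0.019) were higher in KO diaphragm, and *Jun* was lower (-0.86, adjusted p = 0.0023). *Fosb* was not called (0.37, adjusted p = 0.10). Across both muscles, all 6 KO arrays lay above all 6 WT arrays for 4 of 10 members, *Fos*, *Egr1*, *Ier2* and *Dusp1*, where this held for 1.71% of all genes. The lowest KO array of *Fos* was at 7.24 and the highest WT array at 6.63. *Fosb* missed this by a small margin, with its lowest KO array at 6.10 and its highest WT array at 6.15. These counts contain the gastrocnemius arrays from which *Fos* was known, and are a description.

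Between the muscles of KO mice, *Fos*, *Fosb* and *Jun* were lower in diaphragm than in gastrocnemius. *Jun* differed by -0.90 on the log2 scale (SE 0.18, n = 3 each, adjusted p = 0.0016), and its diaphragm arrays (8.24 to 8.80) lay below its gastrocnemius arrays (9.09 to 9.62). *Fos* differed by -0.997 (SE 0.24, n = 3 each, adjusted p = 0.0057) and *Fosb* by -0.59 (SE 0.16, n = 3 each, adjusted p = 0.015), and for both KO diaphragm replicate 3 overlapped with gastrocnemius. The other 7 members were not called, among them *Egr1* (-0.49, adjusted p = 0.17), *Atf3* (-0.59, adjusted p = 0.17) and *Dusp1* (-0.18, adjusted p = 0.56). The count was 3 of 10 lower, where 11.2% of all genes were called lower. The diaphragm arrays lay wholly below those of gastrocnemius for 3 of 10 members (*Jun*, *Junb* and *Atf3*), and for 19% of all genes. They lay wholly above for 1, *Egr3*, and for 25.7% of all genes. *Junb* was called lower with own groups only, a replicate block, median centring, quantile normalization or only the brighter genes (adjusted p = 0.013 to 0.046). *Atf3* was called lower with own groups only (adjusted p = 0.0085). Without KO diaphragm replicate 3, 5 members were called, with *Egr1* at -0.89 (adjusted p = 8.5e-04) and *Junb* at -0.46 (adjusted p = 0.041) added. The call of *Fosb* was lost without KO diaphragm replicate 1 (adjusted p = 0.056) or 2 (adjusted p = 0.075), and without KO gastrocnemius replicate 1 (adjusted p = 0.058) or 2 (adjusted p = 0.066). The methods' t-test at its own threshold called neither *Fos* nor *Fosb* here. This comparison shares the KO gastrocnemius arrays in which *Fos* was known to be high.

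In WT mice none of the 10 members was called between the arrays labelled diaphragm and those of gastrocnemius, where 0.461% of all genes were, by limma and by the methods' t-test after adjustment, and 0 of 10 had an unadjusted limma p under 0.05. *Jun* came nearest, with 8.87, 8.96 and 8.96 on the arrays labelled WT diaphragm, against 9.12, 9.70 and 9.09 in WT gastrocnemius (-0.37, SE 0.18, adjusted p = 0.41). *Fos* differed by 0.03 (SE 0.24) and *Dusp1* by -0.13 (SE 0.20).

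Whether the KO minus WT difference itself differed between the muscle labels was tested as an interaction (diaphragm minus gastrocnemius). No member was called by limma, where 14.8% of all genes were, and 1 of 10, *Fos*, had an unadjusted p under 0.05. The interaction of *Fos* was -1.02 (SE 0.34, adjusted p = 0.057), that of *Egr1* -0.56 (SE 0.35, adjusted p = 0.34), and that of *Dusp1* -0.05 (SE 0.29, adjusted p = 0.93). Without KO diaphragm replicate 3 the interaction was called for 3 members, *Fos* (-1.32, adjusted p = 0.0059), *Egr1* (-0.96, adjusted p = 0.0071) and *Fosb* (-0.62, adjusted p = 0.045). The interaction of *Fos* was also called without WT diaphragm replicate 1 (-1.20, adjusted p = 0.033) or KO gastrocnemius replicate 3 (-1.24, adjusted p = 0.026), and that of *Jun* without WT gastrocnemius replicate 2 (-0.73, adjusted p = 0.049). The test uses the gastrocnemius values that were known.

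The single arrays differed within their groups more for most of these genes than for others. The SD of the arrays around their group means was 0.48 for *Atf3*, 0.39 for *Egr1* and 0.37 for *Fos*, at percentiles 99.3, 98.6 and 98.3 of all genes, where the median gene had 0.138. *Egr3* was the exception among the members, with 0.125 at percentile 39.7. KO diaphragm replicate 3 was the highest array of its group for all 10 members, where it was the highest for 37.1% of all genes. It exceeded the mean of the other KO diaphragm arrays by 1.19 for *Egr1*, 0.89 for *Fos*, 0.63 for *Egr2* and *Fosb*, and 0.54 for *Jun*, and by 0.10 for *Egr3*. The same array exceeded the others by 3.24 for *Irf7* and 3.09 for *Ifit3*, genes of the interferon response, and by 2.84 for *Jchain*, a gene of plasma cells. KO diaphragm replicate 2, the lowest of its group for 7 of 10 members, exceeded the others by 3.83 for *Jchain*. WT gastrocnemius replicate 3 exceeded the others of its group by 1.85 for *Irf7* and 2.23 for *Ifit3*. It was the highest of its group for 1 of 10 members and the lowest for 3. Whether these genes are linked with the members' values was not tested. KO gastrocnemius replicate 3 was lowest of its group for 6 of 10 members, at -0.65 for *Fos* and -0.53 for *Egr1* relative to the mean of the other KO gastrocnemius arrays. *Atf3* and *Dusp1* varied otherwise: WT gastrocnemius replicate 1 exceeded the others by 1.26 for *Atf3*, and WT diaphragm replicate 1 stood at -0.91 relative to the others for *Dusp1*. WT gastrocnemius replicate 1 also exceeded the others by 2.74 for *Krt10* and 2.42 for *Krt5*, keratin genes of skin. WT diaphragm replicate 1 exceeded the others by 2.64 for the heat shock gene *Hspa1a*. A link of these genes with the values of *Atf3* and *Dusp1* was not tested.

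**Figure D3:**
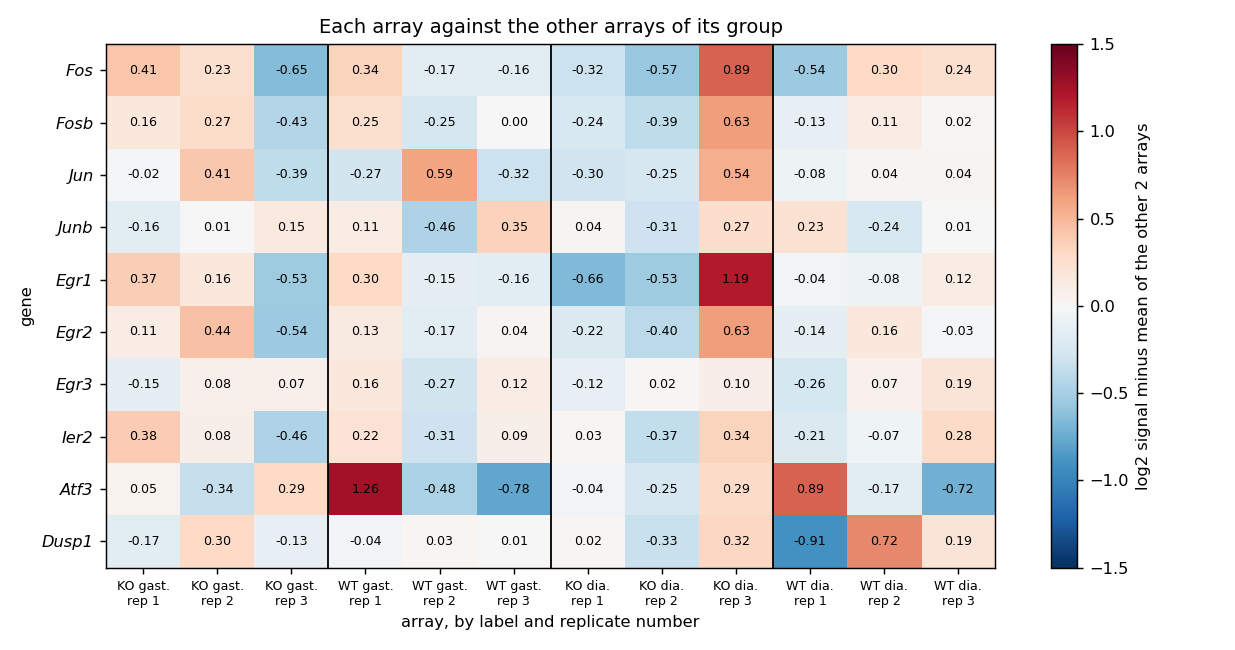
Log2 signal of each array minus the mean of the other 2 arrays of its group (colour and printed value) for the 10 genes (vertical axis) on the 12 arrays (horizontal axis, by label and replicate). KO diaphragm replicate 3 is positive for all 10 genes, with 1.19 for *Egr1* and 0.89 for *Fos*, while KO gastrocnemius replicate 3 is at -0.65 for *Fos* and -0.53 for *Egr1*.

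Other genes of the class were read from a list of 48, of which 46 were measured. This list and those that follow were chosen with earlier results of these data known, so that their counts are a description. In gastrocnemius 5 of 46 were called higher in KO and 0 lower, where 0.406% of all genes were called higher, with a median difference of 0.15, against -0.01 over all genes. *Zfp36*, which encodes an mRNA decay factor induced with *Fos*, had log2 signals of 8.02, 8.37 and 7.81 in KO gastrocnemius, against 6.75, 7.01 and 6.95 in WT gastrocnemius (1.16, SE 0.16). *Sik1*, a kinase gene driven by CREB, differed by 0.98 (SE 0.20), *Rhob*, a small GTPase gene, by 0.80 (SE 0.13), and *Csrnp1*, a nuclear factor gene, by 0.67 (SE 0.11). In diaphragm 17 of 46 were called higher and 5 lower, where 16.3% of all genes were called higher and 11.2% lower, so that the count of lower genes was near the share over all genes. The median was 0.17, against -0.04 over all genes. *Sik1* was higher by 1.30 (SE 0.20, adjusted p = 2.2e-04), *Rgs2*, a regulator of G protein signalling, by 1.23 (SE 0.26, adjusted p = 0.0024) and *Btg2*, an antiproliferative gene, by 1.11 (SE 0.25, adjusted p = 0.0044). *Nr4a3*, an orphan nuclear receptor gene, was lower (-1.30, SE 0.42, adjusted p = 0.032) with overlapping arrays. Its mean log2 signal was 7.06 in KO diaphragm and 8.36 on the arrays labelled WT diaphragm, against 5.92 in WT gastrocnemius. The 3 arrays labelled WT diaphragm were at 9.54, 7.49 and 8.06, so that replicate 1 raised their mean. In gastrocnemius *Nr4a3* stood higher in KO by 1.48 (SE 0.42) without overlap, and was not called (adjusted p = 0.12).

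Upstream of these genes, 1 of 23 measured regulators was called in gastrocnemius, where 0.592% of all genes were called. It was the MAP kinase kinase gene *Map2k6*, higher by 0.79 (SE 0.14). In diaphragm, with WT as labelled, 2 of 23 were called higher and 11 lower, against 16.3% and 11.2% of all genes. Between the muscles of KO mice, 3 of 23 were called higher in diaphragm and 13 lower, against 17.7% and 11.2% of all genes. Whether the differences from the arrays labelled WT diaphragm come from the knockout or from the muscle was not tested. Against the arrays labelled WT diaphragm, *Map3k1*, a MAP kinase kinase kinase gene, was higher by 1.19 (SE 0.10, adjusted p = 7.4e-07). *Camk2a*, a calcium/calmodulin-dependent kinase gene, was lower there (-1.73, SE 0.08, adjusted p = 6.1e-09). The mean log2 signal of *Camk2a* was 6.65 in KO diaphragm, 8.37 in KO gastrocnemius and 8.38 on the arrays labelled WT diaphragm. That of *Map3k1* was 8.19, 6.84 and 6.996 in the same order. Among 14 partners and repressors of AP-1 and EGR, none was called by limma in gastrocnemius, the smallest p-values being those of *Fosl2* (0.63, adjusted p = 0.10) and *Dusp8* (0.35, adjusted p = 0.12). In diaphragm 2 of 14 were higher, the phosphatase gene *Dusp6* (0.72, adjusted p = 3.9e-04) and the EGR corepressor gene *Nab1* (0.65, adjusted p = 4.6e-05), and *Dusp8* was lower (-0.56, adjusted p = 6.4e-04), counts near the shares over all genes (16.3% higher and 11.2% lower).

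Of 18 genes known to respond to contraction, 3 were called higher in KO gastrocnemius and none lower, where 0.406% of all genes were called higher. *Slc25a25*, a mitochondrial ATP-Mg/phosphate carrier gene, had 9.24, 10.14 and 10.16 in KO gastrocnemius, against 7.27, 8.75 and 7.94 in WT gastrocnemius (1.86, SE 0.33). *Ddit4*, a gene induced by stress and glucocorticoids that inhibits mTOR, had 8.19, 9.26 and 9.09 in KO gastrocnemius, against 6.93, 7.82 and 6.86 in WT gastrocnemius (1.64, SE 0.27). For both genes the 3 KO arrays lay above the 3 WT arrays, and *Sik1* was the other gene called. In diaphragm 4 of 18 were higher and 5 lower, against 16.3% and 11.2% of all genes. Beside *Sik1* and *Nr4a3*, *Ppargc1a*, a coactivator gene of mitochondrial biogenesis, was higher (1.11, adjusted p = 0.011) and *Slc25a25* was lower (-1.13, adjusted p = 0.021). The mean of *Slc25a25* was 7.69 in KO diaphragm and 8.81 on the arrays labelled WT diaphragm, against 7.99 in WT gastrocnemius. *Dnajb1*, a heat shock cochaperone gene, was called higher by 0.61 (SE 0.12) in gastrocnemius and by 0.63 (SE 0.12) in diaphragm, with WT as labelled. Of 9 heat shock genes it was the only one called in gastrocnemius, and 1 of 2 called higher in diaphragm. Over all genes 0.406% were called higher in gastrocnemius and 16.3% in diaphragm. The mean log2 signal of the 9 heat shock genes was 10.33 on WT diaphragm replicate 1, against 9.24 and 9.42 on replicates 2 and 3. *Ddit4* was the only called gene of 15 glucocorticoid-responsive and of 11 hypoxia genes in gastrocnemius, where 0.592% of all genes were called.

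**Figure D4:**
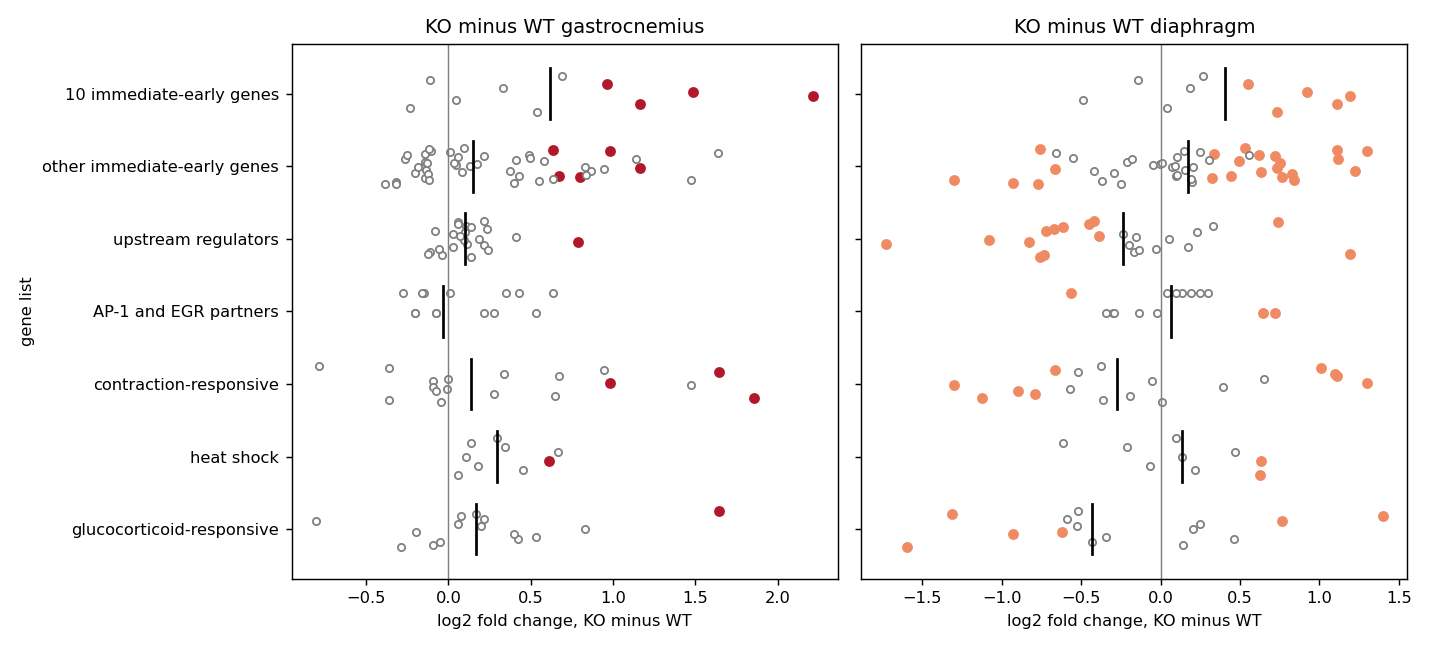
Log2 fold change of KO minus WT (horizontal axes) for the 10 immediate-early genes and 6 other gene lists (vertical axis) in gastrocnemius (left) and diaphragm (right, WT as labelled), with filled points at an adjusted p under 0.05 and a black line at each list's median. The median of the 10 genes is 0.61 in gastrocnemius and 0.41 in diaphragm, and those of the other immediate-early genes are 0.15 and 0.17.

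The genes whose log2 signals followed *Fos* most closely over the 12 arrays, among 9960 genes at or above the median signal, were *Fam20c* (Pearson r = 0.95), *Zfp36* (0.94), *Idi1* (0.93), *Rnls* (0.92) and *Btg2* (0.92). With the group means taken out, so that only the spread within groups was compared, the nearest were 2300009A05Rik (0.92), *Pacs1* (0.91) and *Meaf6* (0.89). These are descriptions over 12 arrays that share 4 groups, and the lists have no gene in common among their first 3.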

How the data were processed

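Total RNA was hybridised to mouse Gene 1.0 ST arrays. The deposited values are log2 signals, which the authors obtained with RMA sketch in Affymetrix Expression Console (version not given in the sources used here), a method that corrects background, normalizes between arrays and summarises probes. Of 35556 probe sets, those with several symbols (1621) or not listed (12146) were left out, and 19938 genes were kept by their brightest probe set. Genes were fitted in R 4.3.3 with limma 3.58.1 (lmFit, eBayes; a mean per group, 12 arrays, 8 residual degrees of freedom), and the fit was tested on simulated data. Arrays have no read depth, and their number limits the precision. Nothing says whether replicates with a shared number are related, and the model has no block.

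The members and all gene lists were chosen with earlier results of these data known. All members are named; of each other list up to 4 called genes with the largest difference are named, or, with no call, the 2 of lowest p. The comparison of KO diaphragm with WT gastrocnemius, a model that leaves out the WT diaphragm arrays, and the promoter motif TGACG were added after seeing the data. Alternatives were own groups only, a replicate block, quantile normalization, median centring, a trended robust eBayes, only the brighter genes (mean signal no lower than the median), averaged probe sets, each array left out, and the methods' t-test. Promoters came from RefSeq (GRCm38.p6).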

Additional observations from a re-analysis of the deposited data

How the results depend on the processing

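Leaving out each array in turn gave 1 to 4 called members for KO against WT gastrocnemius, 4 to 6 for KO diaphragm against the arrays labelled WT diaphragm, 2 to 5 between the KO muscles, 0 to 0 between the WT labels and 0 to 3 for the interaction. At its own threshold the methods' t-test called 4 members in gastrocnemius, 3 in diaphragm, and 4 between the KO muscles (*Jun*, *Junb* and *Atf3* lower, *Egr3* higher), of which 1 was shared with the 3 reported. It called 0 in gastrocnemius, 0 in diaphragm and 0 between the KO muscles after Benjamini-Hochberg adjustment. Fitted on its own groups only, the comparison of KO muscles called 5 members. The interaction called 1 member, *Fos*, with median centring, with quantile normalization, and with genes at or above the median signal. With eBayes trend and robust, *Egr1* was not called in gastrocnemius. Over all genes, the calls in gastrocnemius were 118 in the model as reported, 217 with median centring, 69 with its own groups only, 77 without the arrays labelled WT diaphragm, and 32 to 147 on leaving out an array. Without those WT arrays 4 members in gastrocnemius and 3 between the KO muscles were called. No value of a member changed sign where it was called. The causes were not tested.

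With the replicate number as a replicate block, 4, 5, 4, 0 and 0 members were called in the 5 comparisons, in the order above. Of 18 pairs of arrays with the same number in different groups, 2 had a correlation of their deviations over 0.1 (range -0.096 to 0.16), so that the numbers were not treated as pairs.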
